A study of Mus musculus with 42 samples.

Results

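The 9 genes Irf7, Ifit1, Ifit3, Oasl2, Rsad2, Isg15, Usp18, Ifi27 and Rtp4, which are switched on by interferon, were described library by library in mouse kidney and liver. They were found by matching the Ensembl identifiers of the deposited count table to mouse gene symbols, and all 9 were among its 43629 genes. The mice were males of the UM-HET3 cross, whose animals each inherit a different mix of inbred strain genomes, and were 3 months old when a compound was added to their food, and tissue was taken after 1 month, at 4 months of age. All groups ate the Purina 5LG6 diet, which the controls received with no compound. Whole kidney was measured in 6 controls and in 4 mice on each of GDC-0941 at 50 ppm, an inhibitor of PI3 kinase, enzastaurin at 75 ppm, an inhibitor of protein kinase C, AS-703026 at 30 ppm, an inhibitor of MEK, KU0063794 at 10 ppm and AZD8055 at 20 ppm, both inhibitors of the mTOR kinase, and ascorbyl-palmitate at 6.3 ppm, a fat-soluble ester of vitamin C. Whole liver was measured in 4 mice on each of GDC-0941, enzastaurin and AS-703026. Liver of control mice was not analysed here, so liver groups were compared with each other.

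Type I interferons bind a receptor made of IFNAR1 and IFNAR2, whose kinases JAK1 and TYK2 start a signal to the nucleus. A complex that holds STAT2 and IRF9 then binds the interferon-stimulated response element, a DNA motif in the promoters of interferon-induced genes, while interferon gamma acts through a receptor of its own. Most cells, hepatocytes and kidney tubule cells included, can respond, and low levels of these transcripts are also present in uninfected tissue. IRF7 is a transcription factor that amplifies interferon production. IFIT1 and its partner IFIT3 bind viral RNA, OASL2 belongs to the oligoadenylate synthetase family, and RSAD2 (viperin) makes a nucleotide that stops viral RNA synthesis. ISG15 is a ubiquitin-like modifier, and USP18 removes it from proteins and dampens signalling at the type I receptor. IFI27 is a small membrane protein, and RTP4 helps receptors reach the cell surface.

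Promoters are shown because these genes are grouped by a shared response and the motif behind it can be read directly. The RefSeq table of GRCm38.p6 promoters held 6 of the 9 genes, namely Irf7, Ifit1, Ifit3, Oasl2, Rsad2 and Isg15. In windows from 250 bases before to 50 bases after the start, the core of the response element was searched on both strands as a pair of GAAA copies 2 bases apart, overlapping matches included. Of 32851 promoters of the same length, 3.44% held a match. Isg15 had 3 matches, Ifit1 and Ifit3 had 2 each and Rsad2 had 1. No match to these letters was found in the windows of Irf7 and Oasl2. The gamma-activated site, searched as TTCNNNGAA, was in 8.3% of all promoters and in none of the 6 windows. The 200 bases before the start of the 4 genes with a match follow, 5′ to 3′ on the strand of the gene, with matches in capitals.
Ifit1: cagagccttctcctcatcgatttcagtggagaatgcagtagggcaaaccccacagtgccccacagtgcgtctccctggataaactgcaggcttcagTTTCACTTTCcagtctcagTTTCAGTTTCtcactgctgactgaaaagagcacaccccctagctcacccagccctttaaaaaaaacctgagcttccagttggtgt
Ifit3: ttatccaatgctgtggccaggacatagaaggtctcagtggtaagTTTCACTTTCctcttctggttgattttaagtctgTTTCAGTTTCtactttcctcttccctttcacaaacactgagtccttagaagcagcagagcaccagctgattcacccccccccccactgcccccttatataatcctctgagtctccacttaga
Isg15: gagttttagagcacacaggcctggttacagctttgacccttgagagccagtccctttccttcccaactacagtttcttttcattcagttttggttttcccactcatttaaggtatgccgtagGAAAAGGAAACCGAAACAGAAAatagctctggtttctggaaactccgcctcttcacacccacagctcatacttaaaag
Rsad2: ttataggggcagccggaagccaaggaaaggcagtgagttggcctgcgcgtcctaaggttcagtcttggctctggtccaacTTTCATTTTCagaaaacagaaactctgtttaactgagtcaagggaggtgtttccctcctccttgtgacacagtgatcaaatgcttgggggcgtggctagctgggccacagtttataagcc
These stretches lie at chr19:34640689-34640888 on the plus strand for Ifit1, chr19:34583329-34583528 on the plus strand for Ifit3, chr4:156200819-156201018 on the minus strand for Isg15 and chr12:26456453-26456652 on the minus strand for Rsad2. In both Ifit1 and Ifit3 the upstream match read TTTCACTTTC and the downstream match TTTCAGTTTC, each a pair of TTTC copies and so a match on the opposite strand. In Isg15 the 3 matches overlapped in a single run between bases -78 and -57 from the start. The single match of Rsad2 lay at bases -120 to -111.

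RNA was read by CEL-seq, which barcodes each sample and sequences the 3′ ends of polyadenylated RNA. Levels are given as CPM, counts scaled to a common library size after adjustment by the trimmed mean of M values (TMM) within a tissue, and they were compared between libraries, not between genes. Libraries held 863605 to 5691067 counts in kidney and 1084591 to 4361115 in liver, so that 1 count was worth 0.173 to 1.13 CPM. Most members were low, with kidney medians of 0.916 CPM for Isg15 to 33.9 CPM for Ifi27 over 30 libraries. In the controls Isg15, Irf7 and Usp18 had medians of 0.871, 1.60 and 2.07 CPM. Isg15 had no count in 5 kidney libraries, Irf7 in 4, and Oasl2 and Rtp4 in 1 each. A count of 0 allowed up to 3.30 CPM in AS-703026 replicate 2 and up to 3.40 CPM in KU0063794 replicate 1, a limit of 3 counts that covers counting error only. Markers of proximal tubule and hepatocytes matched the labelled tissues. Summed over 7 proximal tubule genes, libraries held 12500 to 64610 CPM in kidney and 88.2 to 133 CPM in liver, and over 7 hepatocyte genes 69752 to 94984 CPM in liver and at most 1937 CPM in kidney. In bulk tissue, fewer cells of a type and less RNA per cell cannot be told apart. The largest share of counts in 13 satellite-like gene models, which copy repeated DNA, was 29.0% in a kidney library and 1.77% in a liver library, and 11 kidney libraries had 5% or more.

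All 9 are protein-coding genes, placed here on mm10 by GENCODE M21, and Ifit1 (chr19:34640871-34650009, plus strand) and Ifit3 (chr19:34583531-34588731, plus strand) are neighbours. Ifi27 lies at chr12:103434211-103440239 and Usp18 at chr6:121245906-121270917, both on the plus strand, Oasl2 at chr5:114896936-114912234 on the plus strand, Isg15 at chr4:156199424-156200818 and Rsad2 at chr12:26442746-26456452, both on the minus strand. Some members share sequence or position with other genes. In the last 500 bases of Ifit3 transcripts, where CEL-seq reads fall, 31.2% of 24-base words also occur in its neighbour Ifit3b, so the split of reads between that pair is uncertain. For Isg15, Ifit1 and Oasl2, 15.3%, 6.06% and 2.23% of such words occur in transcripts of another gene. Irf7 lies at chr7:141262706-141266481 on the minus strand and overlaps Phrf1 on the other strand. Rtp4 lies at chr16:23520291-23614222 on the plus strand and overlaps Masp1 on the other strand. These overlaps are of whole gene spans, and whether exons overlap was not examined. The strand setting of the counting is not given in the sources used here, so reads from any shared stretch cannot be told apart.

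In kidney, each compound was compared with the controls to ask whether it moved the interferon-induced genes. Only 2 members passed an adjusted p of 0.05 (edgeR's quasi-likelihood test, Benjamini-Hochberg over 11719 genes), Ifit3 under AS-703026 and Ifi27 under AZD8055, and both calls were lost without 1 library. Of the 9 members, 8 were tested in kidney and Isg15 fell below the filter on low counts. No member passed under ascorbyl-palmitate, enzastaurin, GDC-0941 or KU0063794. Over the 7 groups jointly, 1 member passed, Ifi27 (edgeR adjusted p = 0.00195), against 2.51% of all genes tested.

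**Figure D1:**
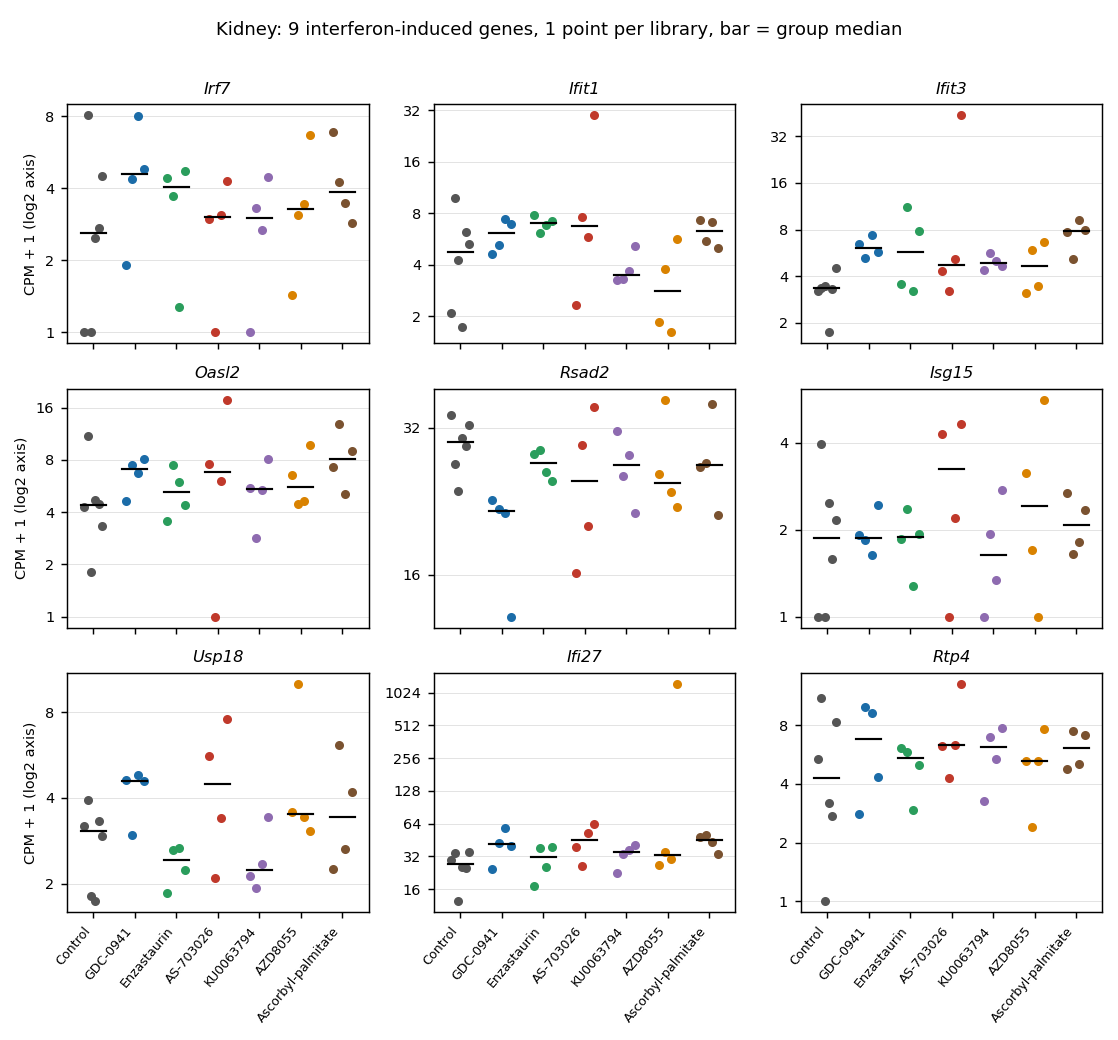
Level of each of the 9 genes in 30 kidney libraries, as CPM + 1 on a log2 axis, by group, with 1 point per library and a bar at the group median. AS-703026 replicate 4 stands at 28.8 CPM for Ifit1 and 42.7 CPM for Ifit3, and AZD8055 replicate 4 at 1227 CPM for Ifi27, above all other kidney libraries.

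Under AS-703026, 1 of 8 tested members was called, Ifit3, against 0.922% of all genes. An unadjusted p under 0.05 was reached by 2 members, Ifit1 and Ifit3, against 15.1% of all genes. Ifit3, the IFIT1 partner, measured 3.29, 2.20, 4.18 and 42.7 CPM in replicates 1 to 4, against a lowest of 0.737, a median of 2.34 and a highest of 3.49 CPM in the controls. Replicate 4 was far above the controls and replicate 3 slightly above the highest of them, while replicates 1 and 2 lay inside their range. The high value rested on 117 counts, with an exact Poisson 95% interval of 35.3 to 51.2 CPM that covers counting error only. The fitted log2 fold change was 2.55 ± 0.59 (SE, n = 4 and 6; edgeR adjusted p = 0.0394). Without AS-703026 replicate 4 it was 0.55 (edgeR adjusted p = 0.758). The adjusted p also rose above the threshold, to 0.0510 without ascorbyl-palmitate replicate 3, 0.0677, 0.0812, 0.0909 and 0.0962 without controls 1, 3, 4 and 5, and 0.0507 without enzastaurin replicate 4, each time with a log2 fold change of 2.38 to 2.56.

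Ifit1 measured 1.32, 6.59, 4.78 and 28.8 CPM under AS-703026 and ranged from 0.737 through a median of 3.76 to 8.84 CPM in the controls. For Ifit1 replicate 4 alone lay above the controls, and the gene was not called (log2 fold change 1.39 ± 0.54, SE; edgeR adjusted p = 0.204). Without that library its log2 fold change was 0.01. Oasl2 followed the same order with 6.58, 0, 5.08 and 16.8 CPM, against 0.814 to 10.0 CPM in the controls, and its log2 fold change of 0.94 ± 0.54 (SE) fell to 0.12 without replicate 4. Irf7, the amplifying transcription factor, was at 1.97, 0, 2.09 and 3.29 CPM, inside the control range of 0 to 7.07 CPM. Usp18 was at 4.60, 1.10, 2.39 and 6.57 CPM against 0.737 to 2.95 CPM in the controls, with a log2 fold change of 1.02 ± 0.55 (SE; edgeR adjusted p = 0.377).

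AS-703026 replicate 4 was among the 3 highest of the 30 kidney libraries for 8 of the 9 members, all but Irf7, and was the highest for Ifit1, Ifit3, Oasl2 and Rtp4. Over all 11719 genes tested, it was among the 3 highest for 15.9%. Other genes of the pathway were high in the same library. Of 40 tested genes in a list of 61 other interferon-induced genes, 37 lay above the control mean there and 17 had their highest kidney value there. Over all genes tested, 6.33% had their highest kidney value there, and the share above the control mean is not given here. All 14 tested interferon gamma GTPases and chemokines lay above the control mean, and Igtp, a GTPase that acts on vacuoles of parasites, reached 111 CPM against a kidney median of 19.1. All 7 MHC class II genes did so too, and H2-Ab1 reached 569 CPM against a median of 142. Some sums of cell type markers were also high in this library. The 8 markers of thin limb and inner medulla, none at 0, summed to 3757 CPM there, against 247 to 610 CPM in the other AS-703026 libraries and 170 to 198 CPM in the controls. These 8 are not specific to kidney, since they summed to 206 to 493 CPM in the liver libraries. The 5 collecting duct markers, of which Avpr2 was at 0 in that group, summed to 1461 CPM against 121 to 165 CPM in the controls. The 8 endothelial markers, none at 0, summed to 482 CPM, the highest of the 30 kidney libraries, against 254 to 294 CPM in the other AS-703026 libraries and 221 to 395 CPM in the controls. The 9 macrophage markers, none at 0, summed to 96.8 CPM against 50.0 to 59.2 CPM in the other AS-703026 libraries and 49.4 to 92.5 CPM in the controls. This sum was not the highest in kidney. It was 137 CPM in AZD8055 replicate 4, 116 in GDC-0941 replicate 3 and 98.7 in ascorbyl-palmitate replicate 3. The share of satellite-like counts was 16.6%. The part of these in the levels of the members and of the MHC class II genes was not tested. Ascorbyl-palmitate replicate 1 had the next highest inner medulla sum, 998 CPM, with 6.70 CPM of Ifit3 and 6.28 CPM of Ifit1.

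**Figure D2:**
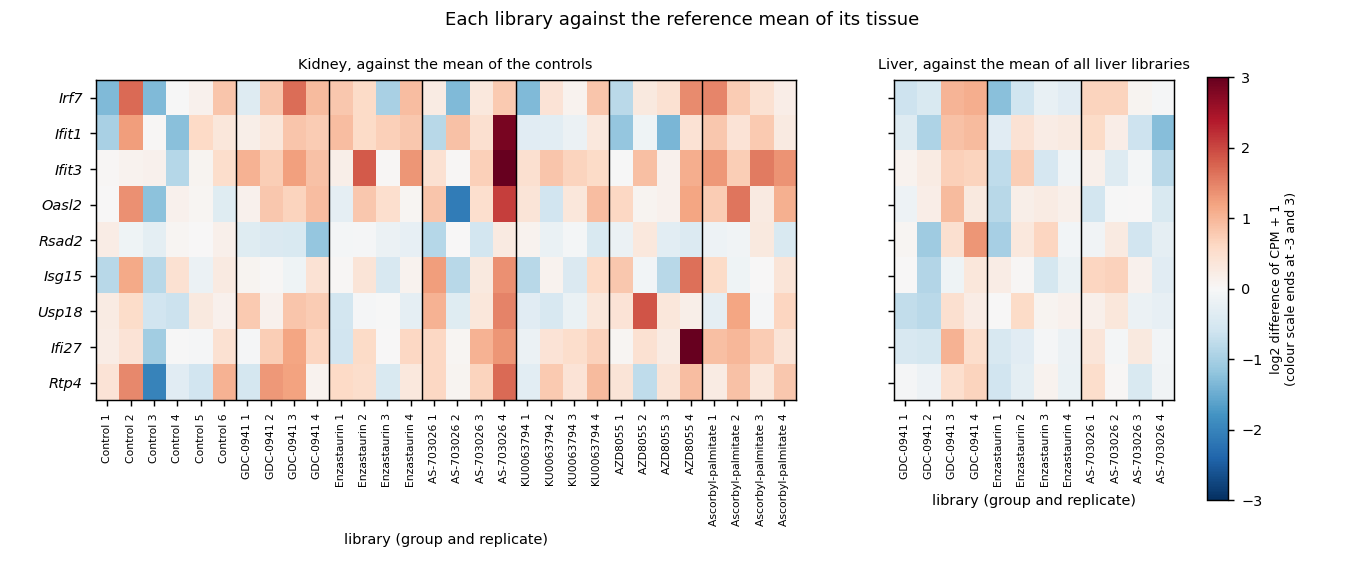
Colour gives the log2 difference of CPM + 1 of each of the 9 genes (rows) in each library (columns) from the mean of the kidney controls or of all liver libraries, red for higher and blue for lower. The columns of AS-703026 replicate 4 in kidney and of GDC-0941 replicates 3 and 4 in liver are red for most genes, with medians of 1.49, 0.71 and 0.66, as are control 2 and AZD8055 replicate 4 in kidney, with medians of 1.14 and 1.08.

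Under AZD8055, 1 of 8 tested members was called, Ifi27, against 5.46% of all genes, and it was also the 1 member with an unadjusted p under 0.05, against 20% of all genes. Ifi27 measured 25.6, 34.1, 29.3 and 1227 CPM in replicates 1 to 4 and from 11.4 through a median of 26.4 to 33.7 CPM in the controls. Replicate 4 was 36.2 times the kidney median of the gene, and replicates 1 and 3 lay inside the control range. The log2 fold change was 3.66 ± 0.68 (SE, n = 4 and 6; edgeR adjusted p = 0.00348), and without AZD8055 replicate 4 it was 0.16 (edgeR adjusted p = 0.891). That library had 34950 CPM in 8 adipocyte markers, none at 0, against 96.5 to 148 CPM in the other AZD8055 libraries and 80.4 to 159 CPM in the controls, and its proximal tubule markers summed to 12500 CPM. Their part in the Ifi27 level was not tested. The related gene Ifi27l2a also had its highest kidney level there, 369 CPM against a median of 3.19 (log2 fold change 4.89 ± 0.98, SE; edgeR adjusted p = 0.00452), and without that library its log2 fold change was -0.44 (edgeR adjusted p = 0.881).

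In AZD8055 replicate 4, 8 of the 9 members lay above the control mean, all but Rsad2, with a median log2 difference of 1.08, and 7 had the highest value of their group there. The shares of all genes for these 2 counts are not given here. This library was among the 3 highest in kidney for 2 of the 9 members, Isg15 and Ifi27, and for 27.6% of all genes tested. It was the highest for the same 2 members and for 19.2% of all genes tested. Isg15 had its highest kidney value, 4.63 CPM from 9 counts. Ifit1 was at 4.63 CPM, Ifit3 at 5.66, Irf7 at 5.66, Oasl2 at 8.74 and Rtp4 at 6.68 CPM, all within the range of the other kidney libraries, unlike Ifi27. Usp18 was highest in AZD8055 replicate 2, at 9.06 CPM, with 2.56, 2.44 and 2.06 CPM in replicates 1, 3 and 4. Over AZD8055 its log2 fold change was 1.05 ± 0.55 (SE; edgeR adjusted p = 0.292). Fitted without the filter on low counts, the log2 fold changes of Isg15 over the 6 compounds ran from -0.29 under enzastaurin to 0.92 under AS-703026 (SE 0.98; edgeR adjusted p = 0.699), and none was called. KU0063794, which also inhibits mTOR, was given at a lower dose, so the values of both are only set side by side. Under KU0063794 Ifi27 measured 21.5, 32.8, 35.5 and 39.9 CPM and Usp18 measured 1.13, 0.924, 1.34 and 2.43 CPM. The KU0063794 log2 fold changes were 0.35 ± 0.71 and -0.23 ± 0.58 (SE), and 0 of 8 members were called against 0.0427% of all genes. None had an unadjusted p under 0.05, against 9.75% of all genes.

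**Figure D3:**
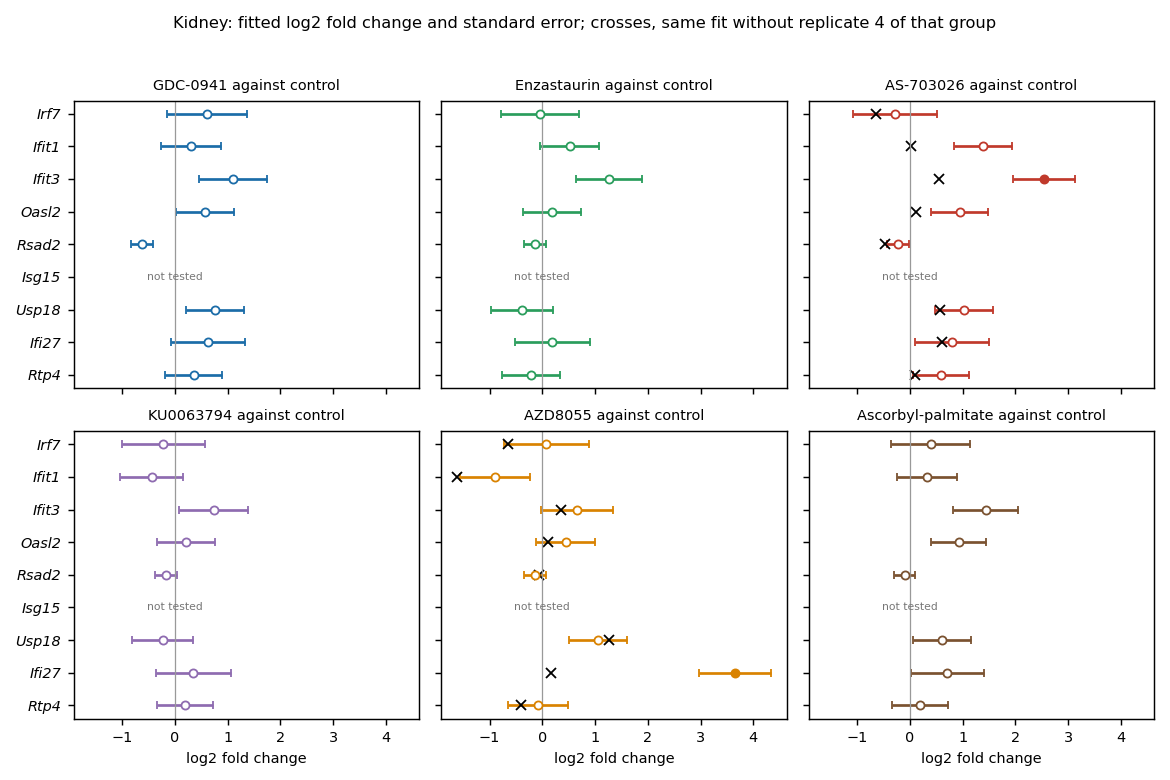
Fitted log2 fold change of each gene against the kidney controls (horizontal axis) with its standard error, by compound, with filled points for an adjusted p under 0.05 and, in the AS-703026 and AZD8055 panels, crosses for the fit without replicate 4 of that compound. The 2 filled points, Ifit3 at 2.55 and Ifi27 at 3.66, move to 0.55 and 0.16.

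Ascorbyl-palmitate and GDC-0941 gave Ifit3 levels that did not overlap the controls, yet neither was called. Ifit3 measured 6.70, 4.20, 8.19 and 6.93 CPM under ascorbyl-palmitate, all above the highest control at 3.49 CPM (log2 fold change 1.44 ± 0.62, SE; edgeR adjusted p = 0.32). It was the only one of 8 tested members with an unadjusted p under 0.05, against 12.5% of all genes, and edgeR called 0 members and 0.0427% of all genes. Groups did not overlap, with the compound higher, for 0.836% of genes under ascorbyl-palmitate. Under GDC-0941 Ifit3 measured 5.45, 4.22, 6.39 and 4.76 CPM, also all above the controls (log2 fold change 1.10 ± 0.65, SE; edgeR adjusted p = 0.498), where 1.33% of genes were higher without overlap. Both comparisons use the same controls, and the lowest of these, control 4, had 1 count of Ifit3. Under enzastaurin Ifit3 measured 2.56, 10.3, 2.22 and 6.83 CPM, with replicates 2 and 4 above the controls and replicates 1 and 3 among them (log2 fold change 1.27 ± 0.62, SE; edgeR adjusted p = 0.640).

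Rsad2 stood apart from the other members in kidney. It was detected in all 30 libraries between 12.1 and 35.5 CPM, and its highest value was 1.41 times its median, a lower ratio than for any other of the 9. Under GDC-0941 it measured 21.8, 20.8, 20.4 and 12.1 CPM, all below the lowest control, and the controls ranged from 22.8 through a median of 28.9 to 32.9 CPM. The log2 fold change was -0.63 ± 0.21 (SE; unadjusted p = 0.00666 and edgeR adjusted p = 0.204), so the difference was not called. Rsad2 was the only member with an unadjusted p under 0.05 there. Of all genes, 1.22% were lower without overlap in that comparison, 13.1% had an unadjusted p under 0.05 and 0.137% were called. Over the 30 kidney libraries Spearman's rho of Rsad2 with the 7 other tested members had a median of -0.24 and a highest value of 0.07. Over all 28 pairs of tested members the median was 0.33 and the highest was 0.67, for Irf7 with Ifi27. These correlations are descriptions, since libraries share depth, scaling and makeup.

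No member was called under enzastaurin, against 0% of all genes, and none of the 8 had an unadjusted p under 0.05, against 7.81% of all genes. DESeq2 called 0 members under ascorbyl-palmitate, enzastaurin, GDC-0941 and KU0063794 as well. The median log2 fold change of the tested members was 0.87 under AS-703026, 0.59 under GDC-0941, 0.50 under ascorbyl-palmitate, 0.26 under AZD8055, 0.07 under enzastaurin and 0.01 under KU0063794, beside medians of -0.02 to 0.03 over all genes. All 6 values share the controls. Without AS-703026 replicate 4 the median under AS-703026 was 0.11, and without AZD8055 replicate 4 that under AZD8055 was 0.020. In order of mean level, Ifit1 ran from AS-703026 (10.4 ± 12.5 CPM, SD, n = 4) through enzastaurin (5.99 ± 0.71), ascorbyl-palmitate (5.23 ± 1.15), GDC-0941 (5.05 ± 1.33), controls (3.90 ± 2.98, n = 6) and KU0063794 (2.85 ± 0.89) to AZD8055 (2.22 ± 1.88), and neighbouring means differed by less than the larger of their SDs. Rtp4 ranged over group means of 3.99 to 6.50 CPM and Irf7 over 1.84 to 3.78 CPM, with SDs of 1.36 to 3.82 CPM, and no 2 neighbouring groups of either differed beyond their spread.

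The controls themselves varied. Control replicate 2 was among the 3 highest kidney libraries for Ifit1, Irf7, Oasl2 and Rtp4, with 8.84, 7.07, 10.0 and 10.0 CPM, and Irf7 was highest there of all 30. Over all genes tested, control replicate 2 was among the 3 highest for 6.83% and the highest for 1.48%. Control replicate 3 had no count of Irf7, Isg15 or Rtp4 and 0.814 CPM of Oasl2. Over the 9 members the median log2 difference from the control mean was 1.14 in control 2 and -0.84 in control 3. Satellite-like counts were 12.5% in control 2 and 5.80% in control 3.

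The ligands that start the response were nearly absent. Of 21 interferon genes, 14 had no count in any kidney library and the rest had 39 counts together. In liver 18 had none and the rest had 13 counts. Receptors and signalling genes were detected in both tissues, and none of 6 receptor genes and 9 tested JAK-STAT genes was called in kidney under any compound. Calls over all genes ran from 0% under enzastaurin to 5.46% under AZD8055, so no calls among so few genes is close to those shares. Jak1, a kinase bound to the receptors, ranged from 86.5 to 152 CPM over the 30 kidney libraries.

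Of 40 tested genes in the list of other interferon-induced genes, only AZD8055 had calls in kidney, with 2 higher and 1 lower, where 3.77% of all genes were called higher and 1.69% lower. Ifi27l2a (above) and Lgals3bp, a secreted glycoprotein, were higher, Lgals3bp by 1.25 ± 0.36 (log2, SE; edgeR adjusted p = 0.0378). Trim25, an E3 ligase for ISG15 that also activates the RNA sensor RIG-I, was lower by -0.71 ± 0.18 (log2, SE; edgeR adjusted p = 0.0211). Without AZD8055 replicate 4, the library rich in adipocyte markers, none of the 3 was called. The call of Lgals3bp was also lost, with adjusted p of 0.0502 to 0.0979, without any of AS-703026 replicates 1 and 3, controls 1, 3, 4 and 5, enzastaurin replicate 2 and KU0063794 replicate 2, and that of Trim25 without control 3 (edgeR adjusted p = 0.0538). Of 14 tested MHC class I and immunoproteasome genes, the antigen-presenting H2-D1 alone was called, higher by 1.12 ± 0.29 (log2, SE; edgeR adjusted p = 0.0225), and this was lost without AZD8055 replicate 4 (0.47; edgeR adjusted p = 0.415), control 3 (edgeR adjusted p = 0.0583) or control 4 (edgeR adjusted p = 0.0633). The count of called genes in that list was 2 without any of AZD8055 replicates 2 and 3, control 2 and GDC-0941 replicate 3. The median log2 fold change of the list of other interferon-induced genes was 0.28 under AS-703026 and 0.17 under AZD8055.

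In liver, no member was called in any of the 3 comparisons between compounds (edgeR, 9490 genes tested, 8 of 9 members tested, Usp18 below the filter). All genes were called at 2.96% for AS-703026 against enzastaurin, 3.22% for AS-703026 against GDC-0941 and 0% for enzastaurin against GDC-0941. Members with an unadjusted p under 0.05 numbered 1, 2 and 2 in that order, against 16.2%, 16.1% and 8.03% of all genes, and DESeq2 called 0 in each. Over the 3 groups jointly 0 members passed, against 3.2% of all genes.

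**Figure D4:**
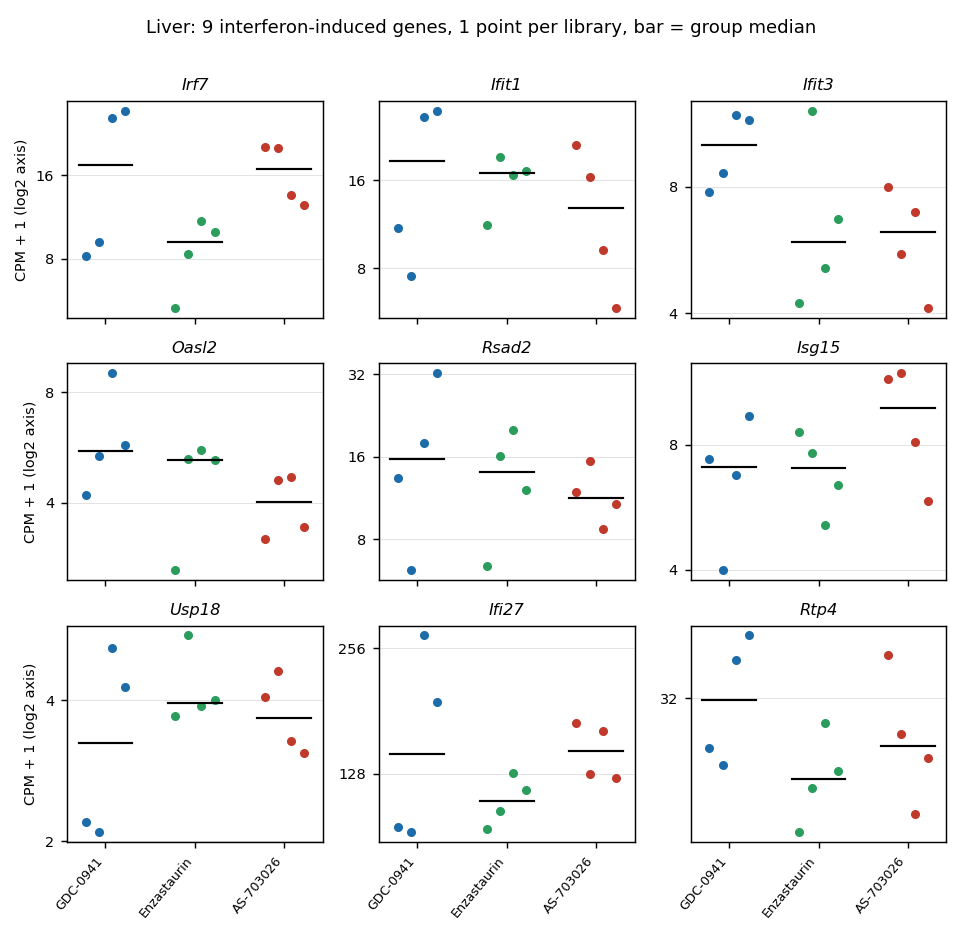
Level of each of the 9 genes in 12 liver libraries, as CPM + 1 on a log2 axis, by compound, with 1 point per library and a bar at the group median. Under GDC-0941 the libraries part into a high and a low pair for Irf7 (24.6 and 26.2 against 7.19 and 8.18 CPM) and Ifi27 (274 and 190 against 94.6 and 91.8 CPM).

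Irf7 measured 19.2, 19.0, 12.5 and 11.5 CPM under AS-703026, 4.33, 7.33, 9.92 and 9.03 CPM under enzastaurin and 7.19, 8.18, 24.6 and 26.2 CPM under GDC-0941. All AS-703026 libraries lay above all enzastaurin libraries, and the GDC-0941 libraries lay on both sides. AS-703026 exceeded enzastaurin by a log2 fold change of 0.94 ± 0.42 (SE, n = 4 each; unadjusted p = 0.0394, edgeR adjusted p = 0.280), where 4.58% of genes were higher without overlap. Enzastaurin against GDC-0941 gave -1.08 ± 0.40 (SE; edgeR adjusted p = 0.530). Ifit3 measured 7.0, 4.53, 5.98 and 3.12 CPM under AS-703026 and 6.79, 7.63, 10.9 and 10.6 CPM under GDC-0941, with 1 AS-703026 library reaching into the GDC-0941 range (log2 fold change -0.78 ± 0.36, SE; edgeR adjusted p = 0.307). Oasl2 measured 2.19, 3.63, 3.70 and 2.43 CPM under AS-703026 and 3.19, 4.36, 8.0 and 4.73 CPM under GDC-0941, which overlapped (log2 fold change -0.78 ± 0.37, SE; edgeR adjusted p = 0.308).

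Ifi27 measured 169, 127, 161 and 124 CPM under AS-703026 and 93.6, 103, 128 and 116 CPM under enzastaurin, and Ifit1 measured 20.1, 15.4, 8.26 and 4.86 CPM under AS-703026 and 10.3, 18.2, 15.7 and 16.3 CPM under enzastaurin. Both genes overlapped between these compounds. Isg15 ranged from 4.86 to 10.9 CPM under AS-703026 and measured 7.58, 6.62, 4.13 and 5.42 CPM under enzastaurin, again with overlap, and Rsad2 ran from 7.69 to 14.5 CPM and from 5.41 to 19.0 CPM. Usp18, below the filter on low counts, was at 1.09 to 4.5 CPM over the 12 libraries.

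The spread within GDC-0941 was wider than the differences between compounds for several members. Replicates 3 and 4 of GDC-0941 were each among the 3 highest of 12 liver libraries for 8 of 9 members, while 22.9% and 24.2% of all tested genes had these libraries among their 3 highest. Ifit1 measured 9.98 and 6.54 CPM in replicates 1 and 2 and 25.3 and 26.6 CPM in replicates 3 and 4. Rsad2 measured 12.4, 5.18, 17 and 31.3 CPM in the same order, and Rtp4 24.8, 22.9, 36.8 and 41.1 CPM. Isg15 did not follow in replicate 3, with 6.39, 3.00, 5.76 and 8.37 CPM, and was highest under AS-703026 at 10.9 CPM. Of 41 tested genes in the list of other interferon-induced genes, 34 lay above the liver mean in replicate 3 and 30 in replicate 4, against 15 and 14 in replicates 1 and 2. The shares of all genes above the liver mean are not given here. Macrophage markers (9 of 9 detected) summed to 246, 162, 273 and 234 CPM in the 4 libraries, Kupffer cell markers (5 of 5) to 184, 143, 214 and 202 CPM, and plasmacytoid dendritic cell markers, with Klk1b27 at 0, to 3.27 to 8.32 CPM. Their part in the members' levels was not tested.

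Across the 12 liver libraries most pairs of tested members ran in the same direction. The median Spearman's rho over 28 pairs was 0.42, 27 of them were positive, and Irf7 with Ifi27 reached 0.92. Rsad2, which ran apart in kidney, had a median rho of 0.57 with the other 7 tested members in liver, where Isg15 took the place of Usp18. Whether the tissues differ in this was not tested. Genes outside the 9 whose levels were most like the mean of the tested members were ranked by Spearman's rho. In liver these were Apol9b (0.94), Rnf213 (0.89), Inip and Vps33a (0.88 each) and Apol9a (0.87), followed by Smyd3, Eif2ak2, Hdac6, Zscan26 and Ulk3 (0.86 to 0.80). In kidney, over 30 libraries, they were Ifit3b (0.88), Tmsb4x and S100a16 (0.85 each), H2-Eb1 (0.80) and Mxra8 (0.79), followed by Gbp2, Srgn, Mrpl55, H2-Ab1 and Dynlrb1 (0.78 to 0.76). Ifit3b shares sequence with Ifit3, as described above.

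Other genes of the pathway did pass in liver. In the list of other interferon-induced genes, 4 of 41 were higher and 0 lower in AS-703026 against enzastaurin, where 1.93% of all genes were higher and 1.03% lower, with a list median of 0.23 beside -0.01 over all genes. They were Zbp1, a sensor of Z-form nucleic acid (1.55 ± 0.35, log2, SE), the membrane proteins Ifitm2 (1.09 ± 0.22) and Ifitm3 (0.82 ± 0.12), which block entry of viruses, and Psmb8, a subunit of the immunoproteasome (0.88 ± 0.21), with edgeR adjusted p of 0.0278, 0.0168, 0.00260 and 0.0312. Against GDC-0941, where 2.04% of all genes were higher and 1.18% lower, Zbp1 (1.43 ± 0.35), Ifitm2 (1.34 ± 0.23) and Ifitm3 (0.75 ± 0.12) were higher and Tap1, a peptide transporter, was lower (-0.78 ± 0.18; edgeR adjusted p = 0.0362, 0.00502, 0.00435 and 0.0241 in that order). Both comparisons share the AS-703026 libraries. Ube2l6, which carries ISG15 for conjugation, was higher in AS-703026 by 0.81 ± 0.15 and 0.60 ± 0.15 (log2, SE; edgeR adjusted p = 0.00833 and 0.0380). Socs3, an inhibitor of cytokine signalling, was higher by 2.00 ± 0.39 and 3.10 ± 0.43 (log2, SE; edgeR adjusted p = 0.0122 and 0.00129). Among 14 MHC class I and immunoproteasome genes, H2-D1 was higher in AS-703026 against enzastaurin as well, by 0.90 ± 0.20 (log2, SE; edgeR adjusted p = 0.0260). Of 13 interferon gamma GTPases and chemokines, the T cell attractant Cxcl11 was lower in the same comparison, by -1.85 ± 0.45 (log2, SE; edgeR adjusted p = 0.0390). In the same groups 7 neutrophil markers summed to 29.9 to 81.3 CPM under AS-703026, 2.48 to 10.2 CPM under enzastaurin and 1.64 to 4.48 CPM under GDC-0941. Of the 7, Ltf was at 0 under AS-703026, Ngp, Camp and Ltf under enzastaurin, and Camp under GDC-0941. Satellite-like counts were 0.857% to 1.77%, 0.124% to 0.602% and 0.329% to 0.645% in the same order. Every AS-703026 library lay above all other liver libraries, so this share and the compound cannot be told apart here. The part of neutrophil RNA was not tested. With the satellite share as a covariate, Socs3 was called against GDC-0941 only, and none of the other genes named here in either comparison, while their folds ranged from smaller to larger. Under it, against enzastaurin and GDC-0941 in that order, Zbp1 differed by 2.09 and 1.84, Ifitm3 by 0.75 and 0.70, Ube2l6 by 0.89 and 0.65 and Ifitm2 by 0.90 and 1.2 (log2), and Psmb8 and H2-D1 against enzastaurin by 0.70 and 0.39. Ifitm3 and Socs3 kept their calls in both comparisons, Ube2l6 against enzastaurin and Ifitm2 against GDC-0941 when any 1 of the 12 libraries was left out. The 4 higher calls against enzastaurin fell to 1 without AS-703026 replicate 1 or 3 and to 2 without enzastaurin replicate 2 or 4. Zbp1 lost its call in both comparisons without AS-703026 replicate 1 or 3, and against GDC-0941 also without GDC-0941 replicates 1, 2 or 3. Psmb8 lost its call without AS-703026 replicate 4 and enzastaurin replicate 1 as well, Tap1 without AS-703026 replicates 3 or 4 or GDC-0941 replicates 1, 3 or 4, and Ube2l6 against GDC-0941 without AS-703026 replicates 1 or 3 or GDC-0941 replicates 1, 2 or 3. H2-D1 lost its call without AS-703026 replicate 3 or enzastaurin replicates 1, 2 or 4, and Cxcl11 without AS-703026 replicates 1, 3 or 4 or enzastaurin replicates 2, 3 or 4.

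Liver and kidney were compared under the 3 shared compounds, with 12 libraries each on one scale and all 9 members tested among 12262 genes. The library titles do not state whether a liver and a kidney came from the same mouse. The fit treated the 24 libraries as independent. Of the 9, 6 were higher in liver and 0 were lower, where 77.4% of all genes were called and 38.2% were called higher, so a call in itself is common here. Isg15 was at 3.79 to 13.2 CPM in liver and 0 to 2.88 CPM in kidney, Rtp4 at 20.3 to 51.7 against 1.43 to 9.50 CPM, and Ifi27 at 113 to 347 against 12.4 to 49.5 CPM, and none of these ranges overlapped. Their log2 differences were 3.00 ± 0.28, 2.95 ± 0.21 and 2.53 ± 0.19 (SE; edgeR adjusted p = 4.3e-10, 2.0e-12 and 4.3e-12). Irf7 (2.87 ± 0.30; edgeR adjusted p = 4.3e-09) and Ifit1 (1.72 ± 0.32; edgeR adjusted p = 3.5e-05) were higher with overlapping ranges, Ifit1 by 2.22 without AS-703026 kidney replicate 4. Usp18 was higher by 0.77 ± 0.27 (edgeR adjusted p = 0.0135), a call lost without GDC-0941 liver replicate 3 (0.59; edgeR adjusted p = 0.0584).

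**Figure D5:**
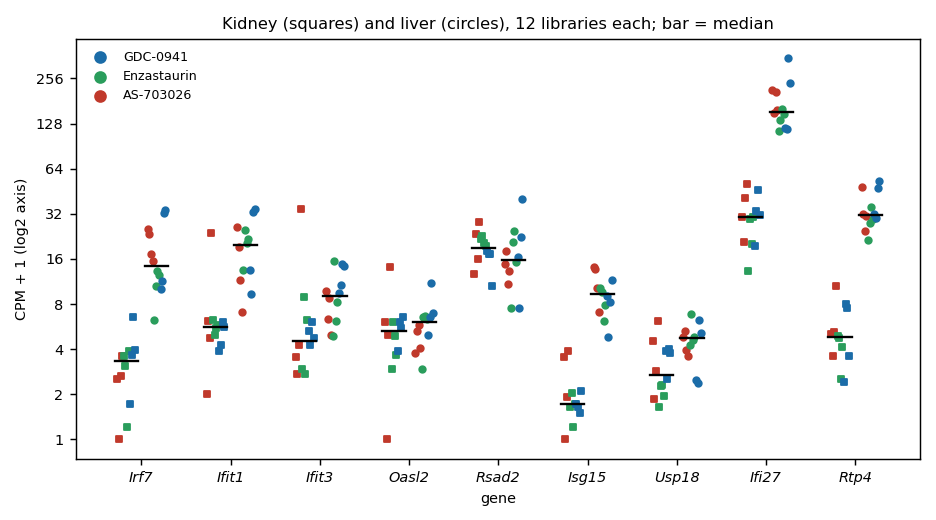
Level of each gene as CPM + 1 on a log2 axis in kidney (squares) and liver (circles) under the 3 shared compounds, coloured by compound, with a bar at the median of 12 libraries. Ranges part fully for Isg15, Ifi27 and Rtp4, while Rsad2 and Oasl2 overlap widely.

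Rsad2 ranged from 6.55 to 39.3 CPM in liver and from 9.50 to 27.1 CPM in kidney, a log2 difference of -0.12 ± 0.22 (SE; edgeR adjusted p = 0.628). Oasl2 differed by 0.04 ± 0.29 (SE; edgeR adjusted p = 0.902) and its sign turned with the scaling. Ifit3 differed by 0.52 ± 0.38 (SE; edgeR adjusted p = 0.210). Its kidney range reached 33.7 CPM in AS-703026 replicate 4, and without that library Ifit3 was called higher in liver, by 1.2 (edgeR adjusted p = 0.00021), which makes 7 of the 9. Of the 6 members with a promoter window, Rsad2, Ifit3, Isg15 and Ifit1 had a match to the core of the response element. Irf7 and Oasl2 had none. A part of these matches in the tissue differences was not tested. Of the 6 interferon receptor genes, 3 were higher and 3 lower in liver, with a list median of -0.01. The type I receptor chain Ifnar2 was higher by 2.60 ± 0.16, while Il10rb and Ifnlr1, which form the receptor of type III interferon, were lower by -1.42 ± 0.11 and -4.24 ± 0.66 (log2, SE; edgeR adjusted p = 6.3e-14, 1.1e-11 and 4.8e-06). Of 10 JAK-STAT genes, 7 were higher and 2 lower, the higher ones including Stat2 (3.22 ± 0.16) and Irf9 (3.00 ± 0.15) and the lower ones being Pias1 (-0.89 ± 0.11) and Socs1 (-1.05 ± 0.44), both inhibitors of the pathway (log2, SE; edgeR adjusted p = 1.7e-15, 1.5e-15, 5.9e-08 and 0.0309). Socs3 and Cish, inhibitors in the same list, were not called lower. All 4 genes of the ISG15 conjugation cycle were higher. Of 48 tested genes in the list of other interferon-induced genes, 32 were higher and 6 lower. Whether differences between compounds differ between tissues was tested as an interaction, and 0 of 9 members passed, against 0.163% of all genes. Usp18 had the lowest p (unadjusted p = 0.0266, edgeR adjusted p = 0.429) and was the only member under 0.05 before adjustment.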

How the data were processed

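RNA of kidney (30 libraries) and liver (12 libraries) was measured by CEL-seq. The authors deposited 1 table of read counts per Ensembl gene, not normalized. Per the submitters' processing notes, the tools were featureCounts 1.5, STAR 2.5.2b, Trimmomatic 0.32 and bcl2fastq 1.8.4 with the mm10 genome, in roles the notes do not state. Annotation release and use of molecular identifiers were not given in the sources used here. Symbols came from GENCODE M21 (42548 of 43629 identifiers matched).

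Counts were tested with edgeR 4.0.16 in R 4.3.3 (TMM scaling, filterByExpr, quasi-likelihood fit of all libraries of a tissue in 1 model, Benjamini-Hochberg threshold 0.05). SE is the log2 fold change over the root of F. Libraries were grouped by their titles, and the series design calls replicates biological. Per-library log2 differences used a pseudocount of 1 CPM. Alternatives were other scaling, no filter, DESeq2 1.42.0, a replicate block, the satellite share as a covariate, and leaving libraries out. Between tissues, the block paired the liver and kidney libraries of a compound that have the same replicate number.

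All 9 members were examined in each comparison, and values are given for those called and for some of the others. From the other gene lists, genes past the threshold (up to 6 by p) or up to 4 of highest mean CPM are named, and 10 genes a tissue by likeness. The members and lists were chosen with earlier results of these data known.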

Additional observations from a re-analysis of the deposited data

Results flagged for a closer look

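Of 90 combinations of gene and group, 8 held a library whose distance from its nearest neighbour was large for the range of its group by Dixon's test at 95%. Chance flags about 1 in 20 groups, so several of the 8 could arise that way. In kidney, Ifit3 was at 42.7 CPM in AS-703026 replicate 4 and Ifi27 at 1227 CPM in AZD8055 replicate 4, both far above their groups. Usp18 was high in AZD8055 replicate 2, at 9.06 CPM from 13 counts. Oasl2 was high in control replicate 2, at 10.0 CPM. Under GDC-0941 in kidney, Rsad2 was low in replicate 4, at 12.1 CPM, and Usp18 was low in replicate 2, at 1.97 CPM from 7 counts. Under enzastaurin in liver, Oasl2 was low in replicate 1, at 1.62 CPM from 3 counts, and Usp18 was high in replicate 2, at 4.5 CPM from 19 counts.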

How the results depend on the processing

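Member calls were few, and settings moved them. Without the filter on low counts edgeR called 3 members over the 7 kidney groups, 1 in liver for AS-703026 against enzastaurin, 2 for enzastaurin against GDC-0941, 2 over the 3 liver groups and 2 for the interaction. Irf7 was then called in AS-703026 against enzastaurin (0.92, adjusted p = 0.00708) and in enzastaurin against GDC-0941 (-1.07, adjusted p = 0.000894), and the call of Usp18 in liver against kidney was lost (0.65, adjusted p = 0.113). The replicate block left 0 members called under AS-703026 (Ifit3 2.5, adjusted p = 0.201), under AZD8055 (Ifi27 2.97, adjusted p = 0.0888) and over the 7 groups, and Rtp4 under AZD8055 was 0.10 in place of -0.09. Libraries that share only a number had a median correlation of -0.01 (-0.56 to 0.51) over 84 kidney pairs and -0.03 over 12 liver pairs. Pairs with different numbers had medians of 0.002 (-0.61 to 0.56) over 300 kidney pairs and 0.01 over 36 liver pairs. Kidney with liver of the same compound had 0.02 over 12 pairs with the same number and -0.01 over 36 with different numbers. Medians near 0 with such a spread cannot settle whether the numbers pair libraries. The satellite share as a covariate left 0 members under AS-703026 (Ifit3 2.42, adjusted p = 0.0799). Without libraries at 5% or more satellite-like counts, which leaves 1 AS-703026 library assumed to vary like the other groups, 0 members were called under AS-703026, Ifit3 was 0.50, Ifit1 -1.21 and Irf7 0.019, and Rtp4 under AZD8055 was 0.36. The block also left none of Ifi27l2a (3.46), Lgals3bp (1.11), Trim25 (-0.73) and H2-D1 (1.06) called under AZD8055, nor, in liver, Ube2l6 against GDC-0941 (0.60) or Ifitm2 (1.07) and Cxcl11 (-1.78) against enzastaurin, and it brought Ifit3 in liver against kidney past the threshold (0.76, adjusted p = 0.0466). Leaving out 1 library, Ifi27l2a ranged from -0.44 (without AZD8055 replicate 4) to 5.28. DESeq2 gave Ifi27 under AZD8055 no adjusted p (log2 fold change 3.64). Leaving out 1 library gave 0 to 1 members under AS-703026 and AZD8055 and 0 to 2 over the 7 groups (2 without AS-703026 replicate 1, 0 without AZD8055 replicate 4), and Irf7 and Rtp4 under AZD8055 ranged from -0.66 to 0.42 and from -0.41 to 0.30.

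Counts of called genes over all genes were 108 (AS-703026), 5 (ascorbyl-palmitate), 640 (AZD8055), 0 (enzastaurin), 16 (GDC-0941) and 5 (KU0063794) in kidney, with 294 over the 7 groups. Liver gave 281 (AS-703026 against enzastaurin), 306 (AS-703026 against GDC-0941), 0 (enzastaurin against GDC-0941) and 304 (all groups), and the interaction 20. Without the filter, AS-703026 had 296, ascorbyl-palmitate 155, enzastaurin 57, GDC-0941 70, KU0063794 49 and the 7 groups 1196, liver 673, 769, 207 and 940, and the interaction 484. In the same order the replicate block gave 0, 15, 27, 2, 0 and 11 in kidney, 9 over the groups and 11 for the interaction. The covariate gave 20 for AS-703026, 0 for ascorbyl-palmitate, GDC-0941 and KU0063794, and 1, 22 and 9 for liver AS-703026 against enzastaurin, against GDC-0941 and all groups. In liver the share was highest in the AS-703026 libraries, so share and compound cannot be told apart there. Without libraries at 5% or more, AS-703026 had 1, AZD8055 1219, and ascorbyl-palmitate, GDC-0941 and KU0063794 had 0. DESeq2 gave 302, 149, 28, 219 and 69 for AS-703026, ascorbyl-palmitate, enzastaurin, GDC-0941 and KU0063794, and 472 and 17 for liver AS-703026 and enzastaurin against GDC-0941, and relative log expression scaling in edgeR gave 7 for GDC-0941. That scaling moved the median of all genes in liver against kidney from -0.05 to -0.16, and 6 members were called there as well. Oasl2, at 0.04 between the tissues, was then -0.072, without the filter -0.082, and from -0.10 to 0.33 with 1 library left out. Leaving out 1 library gave 0 to 339, 0 to 130, 25 to 842, 0 to 60, 0 to 159 and 0 to 73 in kidney, in that order, 140 to 398 over the groups, 124 to 359, 148 to 456, 0 to 1 and 125 to 384 in liver, and 11 to 38 for the interaction. The causes were not tested. Isg15 had 92 counts over all kidney libraries and Usp18 had 184, which limits their precision.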
